A study of Homo sapiens with 12 samples.

Results

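The genes described here are 10 writers, guides and erasers of DNA methylation, namely DNMT1, DNMT3A, DNMT3B, UHRF1, UHRF2, TET1, TET2, TET3, TDG and HELLS. They were taken by name from a table of 58037 gene identifiers, and each of the 10 matched 1 identifier. RNA-seq was performed on DU-145/tet-MUC1shRNA and LNCaP-AI/tet-MUC1shRNA prostate cancer cells treated with vehicle or with 500 ng/ml doxycycline (DOX) for 7 days, with 3 samples in each of the 4 groups and 12 in all. Every sample carried the inducible shRNA construct against MUC1. The sources differ on the medium of DU-145 cells, which the labels give as the phenol red-free medium with charcoal-stripped serum used for LNCaP-AI cells and the study's methods give as RPMI1640 with fetal bovine serum, so the lines may also differ in medium. DU-145 is an established prostate cancer line, and LNCaP-AI is an androgen-independent line selected from C4-2B cells, a derivative of LNCaP. The labels call the groups control and MUC1 shRNA, and the groups are named here as vehicle and DOX, after the study's own account. No sample here pairs DOX with a control shRNA, so the effect of DOX itself and that of the shRNA cannot be told apart.

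DNA methylation places a methyl group on cytosine, mostly where a G follows. DNMT3A and DNMT3B write new marks, whereas DNMT1 copies them onto the new strand after replication with the help of UHRF1, which recognises hemimethylated DNA. HELLS is a chromatin remodeler that opens nucleosomal DNA to the methyltransferases. The TET enzymes oxidise the methyl group, and the glycosylase TDG excises the most oxidised forms so that repair can restore an unmodified base. DNMT1, UHRF1 and HELLS are known as genes of proliferating cells, with highest expression around S phase.

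MUC1, the gene the shRNA targets, was lower with DOX in every sample of both lines. It had 74, 60 and 59 counts in the DU-145 vehicle samples and 3, 3 and 3 with DOX, and 36, 25 and 52 counts in the LNCaP-AI vehicle samples and 8, 6 and 3 with DOX. The DOX level from summed counts was 4.49% of the vehicle level in DU-145 (exact binomial 95% interval 2.02 to 8.69%, counting error only) and 17.1% in LNCaP-AI cells (9.61 to 28.6%). Both decreases passed edgeR's quasi-likelihood test with Benjamini-Hochberg adjustment over all genes (adjusted p = 1.37e-09 and 0.0139), although that in LNCaP-AI cells did not without DOX 2 or DOX 3 (adjusted p up to 0.0854). Within each line MUC1 met the filter on low counts, 10 or more counts in 3 or more samples, through its vehicle samples alone. It was therefore not tested in the within-line fits that leave out a vehicle sample. Total counts ran from 10423437 to 13544153 in DU-145 and from 16569613 to 26961777 in LNCaP-AI samples. The lines matched their markers in that KLK3 and HOXB13 had 0 CPM in every DU-145 sample, where CPM is the count relative to library size after TMM normalization over all 12 samples. VIM was at 557 to 903 CPM in DU-145 and at 27.0 to 56.7 CPM in LNCaP-AI samples.

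The LNCaP-AI samples divided across the treatments, which bears on every LNCaP-AI value below. On the first principal component, with 82.5% of the variance, vehicle 2, vehicle 3 and DOX 1 lay apart from vehicle 1, DOX 2 and DOX 3. In the first set CAV1 was at 75.2 to 86.5 CPM, CD44 at 69.5 to 83.5 CPM and LGALS1 at 27.8 to 31.1 CPM, whereas in the second set none of these 3 genes passed 0.491 CPM. The summed level of the 4 DU-145 lineage markers (CAV1, CD44, VIM and LGALS1) was 224 to 228 CPM in the first set and 27.8 to 57.1 CPM in the second, against 1290 to 1878 CPM in DU-145 samples. VIM did not follow the division and made up nearly all of the sum in the second set. It was at 27.2, 30.4 and 52.1 CPM in vehicle 2, vehicle 3 and DOX 1. In vehicle 1, DOX 2 and DOX 3 it was at 27.0, 56.7 and 55.8 CPM. All 6 LNCaP lineage markers were above 3 counts in each of the 6 LNCaP-AI samples. Their summed level was 2691, 1733 and 1765 CPM in vehicle 1, 2 and 3, and 2765, 3855 and 3779 CPM in DOX 1, 2 and 3. It was thus higher with DOX without overlap, and it differed within each treatment as well. With DOX 4 of the 6 rose (66.7%, against 7.22% of genes tested), with a median log2 fold change of 1.52. Without DOX 2 or without DOX 3, 1 gene was called in the whole table. Vehicle 1 and DOX 1 thus lay with samples of the other treatment, and an exchange of the 2 cannot be told from the labels alone. MUC1 (36 counts in vehicle 1 and 8 in DOX 1), KLK3 (175 and 336 CPM) and VIM (27.0 and 52.1 CPM) ran with the labels as given, with vehicle 2 and 3 at 132 to 141 CPM of KLK3 and DOX 2 and 3 at 423 to 448 CPM. The part of this division in the results was not tested except by the values within each set, which are given beside them. In bulk RNA, fewer cells in a state and less RNA per cell cannot be told apart.

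Promoter sequence is shown for 5 of the genes to let their different make-up be seen beside the values that follow: HELLS and UHRF1, which hold a word of the E2F type, TDG and TET3, which hold the E-box word, and DNMT3A, which has neither at the start shown. Each is the 250 bases before the RefSeq transcript start (GRCh38.p14), at chr10:94545538-94545787 on the plus strand for HELLS, chr19:4909251-4909500 on the plus strand for UHRF1, chr12:103965622-103965871 on the plus strand for TDG, chr2:73984660-73984909 on the plus strand for TET3 and chr2:25341926-25342175 on the minus strand for DNMT3A. Capitals mark the words searched for on both strands, which were TTTCCCGC, TTTGGCGC, TTTCGCGC and TTTGCCGC (E2F type), CACGTG (E-box) and TTTGAA (the CHR element of cell cycle genes). No marked word overlaps another.
HELLS: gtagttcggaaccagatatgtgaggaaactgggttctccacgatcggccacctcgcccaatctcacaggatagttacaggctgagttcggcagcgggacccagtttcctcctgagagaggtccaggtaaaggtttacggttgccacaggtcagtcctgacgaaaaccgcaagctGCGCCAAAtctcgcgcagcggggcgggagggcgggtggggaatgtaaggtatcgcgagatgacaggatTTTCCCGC
UHRF1: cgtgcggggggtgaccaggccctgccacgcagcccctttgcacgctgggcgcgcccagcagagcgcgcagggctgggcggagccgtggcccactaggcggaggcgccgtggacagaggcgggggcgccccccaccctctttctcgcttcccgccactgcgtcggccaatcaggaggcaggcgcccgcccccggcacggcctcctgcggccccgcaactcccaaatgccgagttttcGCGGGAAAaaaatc
TDG: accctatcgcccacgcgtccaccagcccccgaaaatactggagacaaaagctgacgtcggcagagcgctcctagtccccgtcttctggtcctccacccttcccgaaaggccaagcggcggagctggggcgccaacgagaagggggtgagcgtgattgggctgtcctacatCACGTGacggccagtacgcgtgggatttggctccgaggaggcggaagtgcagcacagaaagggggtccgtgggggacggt
TET3: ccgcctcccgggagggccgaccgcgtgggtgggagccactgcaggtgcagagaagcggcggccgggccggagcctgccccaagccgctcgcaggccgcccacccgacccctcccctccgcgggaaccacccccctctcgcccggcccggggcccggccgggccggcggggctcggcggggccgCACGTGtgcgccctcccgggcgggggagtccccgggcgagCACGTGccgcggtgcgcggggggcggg
DNMT3A: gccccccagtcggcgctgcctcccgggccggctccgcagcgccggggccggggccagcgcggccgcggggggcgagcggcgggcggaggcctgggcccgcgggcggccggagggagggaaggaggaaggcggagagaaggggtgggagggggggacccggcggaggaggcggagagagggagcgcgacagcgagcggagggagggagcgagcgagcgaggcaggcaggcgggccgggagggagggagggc

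An E2F word was in 2.79% of 35116 RefSeq promoters of this length, the E-box in 6.34% and the CHR word in 13.3%. HELLS held 2 E2F words, which began 8 and 76 bases before the start, and UHRF1 held 1 that began 14 bases before it. The E-box was present 1 time in TDG and 2 times in TET3. None of these words was in the windows of DNMT1, DNMT3A, TET1, TET2 and UHRF2 at these starts, which says only that the letters are not there. Other RefSeq starts of a gene can differ, since the E-box was at 2 of the 6 starts of DNMT3A, 1 of the 2 of TET2 and 1 of the 2 of TET3. Likewise an E2F word was at 2 of the 3 starts of UHRF1, and the CHR word at 1 of the 2 of TET2. The table's sole DNMT3B start lay 17467 bases inside the gene from the canonical start, and its window was therefore not used. The promoters of TET3, TET2 and DNMT3A were dense in the CpG dinucleotide, with 37, 34 and 33 sites, whereas TET1 had 9, against a median of 11 over all promoters.

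In DU-145 cells, both de novo methyltransferases and HELLS were lower with DOX, and TET2 and UHRF2 were higher. Of the 10 genes, 6 fell (60%) and 2 rose (20%) at an adjusted p under 0.05, against 25.3% of the 13644 genes tested that fell and 26.3% that rose. The groups did not overlap for 9 of the 10, against 57.3% of genes tested. All 10 genes passed the filter on low counts in both lines. The median log2 fold change of the 10 was -0.26, against 0.00 over all genes tested.

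Markers of cell identity moved in the same DU-145 samples. All 4 epithelial markers rose, against 26.3% of genes tested, by 1.12 to 1.52 on the log2 scale. EPCAM, an adhesion molecule, was at 96.9 to 104 CPM with vehicle and 268 to 316 CPM with DOX (1.52, adjusted p = 1.03e-11). The summed level of the 4 epithelial markers was 869 to 934 CPM with vehicle and 1999 to 2133 CPM with DOX. Of the 4 DU-145 lineage markers 3 fell (75%, against 25.3% of genes tested), VIM (-0.57, adjusted p = 4.16e-06), LGALS1 (-0.62, adjusted p = 4.07e-07) and CAV1 (-0.52, adjusted p = 1.39e-05). The remaining marker, CD44, rose (0.30, adjusted p = 0.00462), which is 25%, near the 26.3% of genes tested. The part of these shifts in the values of the 10 genes was not tested.

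DNMT3A (chr2:25227855-25342590, minus strand) was at 38.0, 35.2 and 38.4 CPM in DU-145 vehicle samples and at 13.7, 16.6 and 16.4 CPM with DOX. The highest DOX sample was below the lowest vehicle sample by a wide margin, and the log2 fold change was -1.25 (SE 0.0968, adjusted p = 4.07e-09), which is 2.37-fold lower. DNMT3B (chr20:32762385-32809359, plus strand), the second de novo enzyme, was at 8.36, 6.68 and 8.15 CPM with vehicle and at 3.02, 2.91 and 2.39 CPM with DOX. Its groups were likewise apart, with a log2 fold change of -1.47 (SE 0.183, adjusted p = 1.80e-06), which is 2.78-fold lower. Of all genes tested, 2.46% had a lower log2 fold change than DNMT3A and 1.39% a lower one than DNMT3B.

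The maintenance genes moved less in DU-145 cells. DNMT1 (chr19:10133342-10231286, minus strand) was at 409, 411 and 375 CPM with vehicle and at 360, 373 and 345 CPM with DOX, so that the DOX samples were just below the vehicle samples. The log2 fold change of -0.14 (SE 0.0681, adjusted p = 0.0898, 95% interval -0.28 to 0.00) did not pass the test. UHRF1 (chr19:4903080-4962154, plus strand), which brings DNMT1 to replicated DNA, was at 127, 106 and 113 CPM with vehicle and at 98.6, 111 and 94.7 CPM with DOX. These groups overlapped, and the log2 fold change was -0.18 (SE 0.0781, adjusted p = 0.0644). UHRF2 (chr9:6413151-6507054, plus strand), its paralog, rose from 66.2, 68.9 and 80.5 CPM to 82.4, 87.9 and 88.0 CPM, with a log2 fold change of 0.27 (SE 0.0804, adjusted p = 0.00948). Without vehicle 1, the adjusted p of UHRF2 was 0.0958. HELLS (chr10:94545329-94613905, plus strand) was at 196, 145 and 188 CPM with vehicle and at 95.6, 119 and 96.8 CPM with DOX. It was the member of this group with a clear decrease, with a log2 fold change of -0.76 (SE 0.0997, adjusted p = 3.67e-06), and its groups did not overlap.

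The erasers moved in both directions in DU-145 cells. TET1 (chr10:68560337-68694487, plus strand) was low throughout, at 2.87, 2.63 and 2.60 CPM with vehicle and at 1.60, 1.81 and 1.51 CPM with DOX, from 26 to 35 counts and 17 to 23 counts. The log2 fold change of -0.71 (SE 0.250, adjusted p = 0.0239) rests on these few counts. It did not pass the test with DESeq2 (adjusted p = 0.0905) or without vehicle 1, DOX 1 or DOX 3 (adjusted p = 0.0528 to 0.0672). TET2 (chr4:105145875-105279816, plus strand) was at 35.5, 34.2 and 36.5 CPM with vehicle and at 45.7, 43.0 and 46.8 CPM with DOX. All 3 DOX samples were above the vehicle samples, with a log2 fold change of 0.36 (SE 0.0792, adjusted p = 0.000957). TET3 (chr2:73984910-74108176, plus strand) was at 48.4, 43.5 and 46.4 CPM with vehicle and at 39.4, 42.5 and 36.4 CPM with DOX. Its decrease was small, with a log2 fold change of -0.22 (SE 0.0815, adjusted p = 0.0296). It did not pass the test with DESeq2 (adjusted p = 0.0580) or without vehicle 1, vehicle 3, DOX 1 or DOX 3 (adjusted p = 0.0524 to 0.150). TDG (chr12:103965822-103988874, plus strand) was at 36.4, 43.1 and 40.6 CPM with vehicle and at 31.4, 31.3 and 34.6 CPM with DOX, with a log2 fold change of -0.29 (SE 0.0882, adjusted p = 0.00925).

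**Figure D1:**
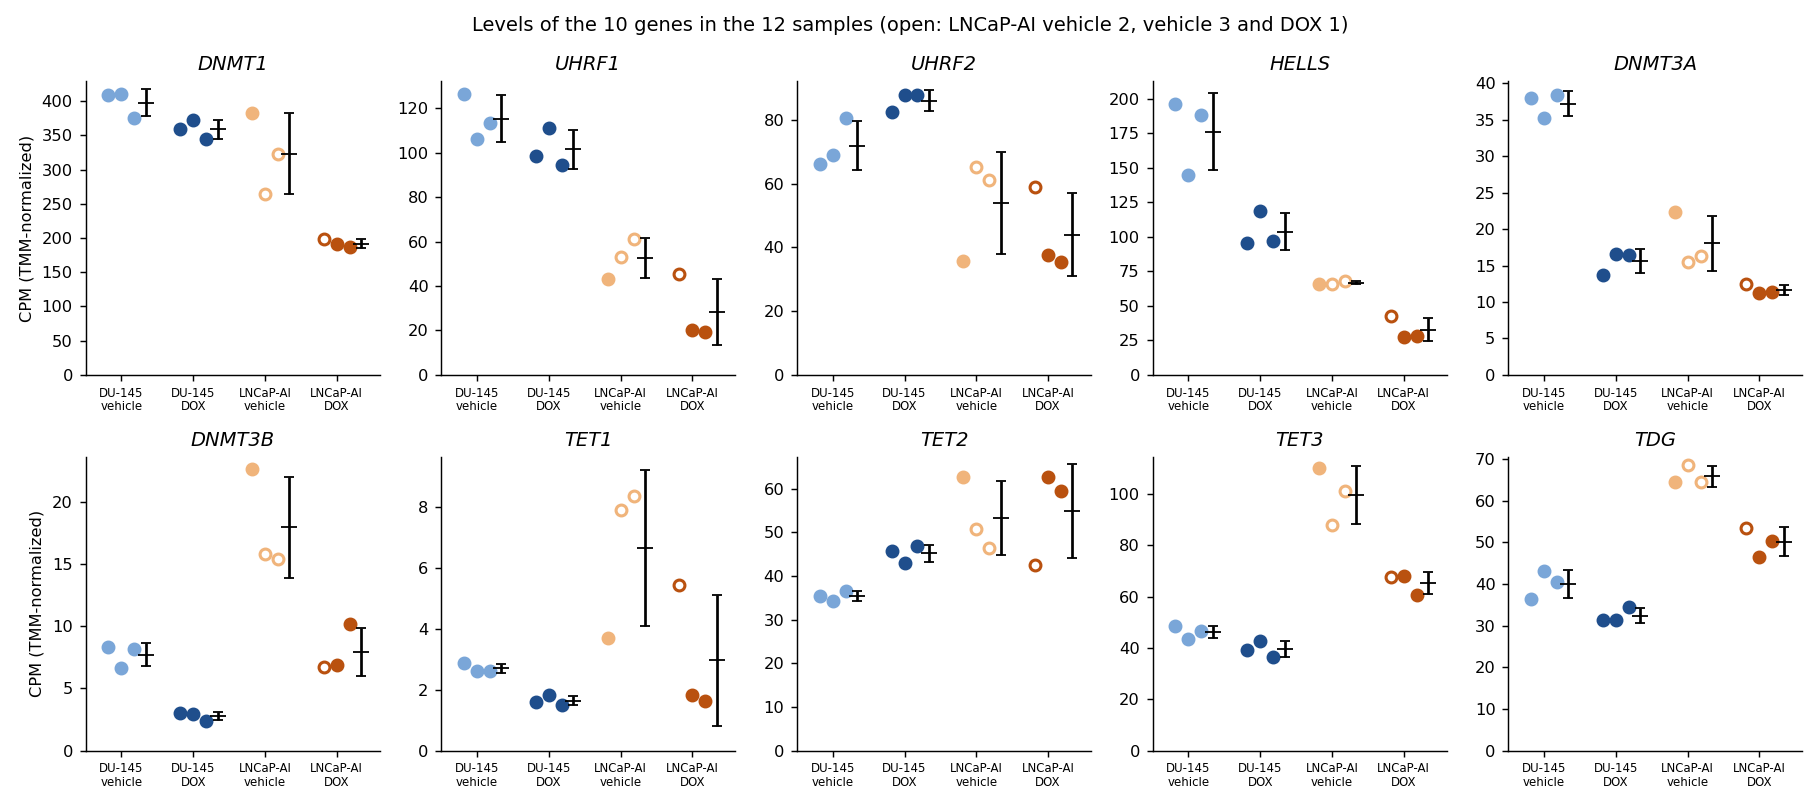
CPM of each gene in the 12 samples, with points for samples, and black marks for the mean and SD of each group (n = 3). DNMT1, DNMT3A, DNMT3B, HELLS, TET3 and TDG are lower with DOX than with vehicle in both lines without overlap. Of all genes tested, the groups do not overlap for 57.3% in DU-145 and for 38.1% in LNCaP-AI cells, in either direction. DNMT1 in DU-145 cells (adjusted p = 0.0898) and DNMT3A in LNCaP-AI cells (adjusted p = 0.0639) did not pass edgeR's test. Among LNCaP-AI samples the open points (vehicle 2, vehicle 3 and DOX 1) stand together for UHRF2, TET1 and TET2.

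In LNCaP-AI cells, DNMT1, DNMT3B, HELLS, TET3 and TDG were lower with DOX. These were 5 of the 10 genes (50%), against 5.52% of the 16030 genes tested that fell. None of the 10 rose by edgeR (0 also at an unadjusted p under 0.05 and 0 by DESeq2), against 7.22% of genes tested. The groups did not overlap for 6 of the 10, against 38.1% of genes tested, and the median log2 fold change was -0.72, against -0.05 over all genes. These calls rested on few samples. Without DOX 2 or without DOX 3 the count was 0 of 10, with 1 gene called in the whole table, and it was 3 without vehicle 2, 1 without vehicle 3 and 8 without DOX 1.

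DNMT1 was at 383, 265 and 323 CPM in LNCaP-AI vehicle samples and at 199, 191 and 187 CPM with DOX. The vehicle samples were widely spread but all above the DOX samples, with a log2 fold change of -0.78 (SE 0.148, adjusted p = 0.0257), which is 1.72-fold lower. UHRF1 was at 43.2, 53.0 and 61.3 CPM with vehicle and at 45.4, 20.0 and 19.4 CPM with DOX. DOX 1 lay among the vehicle samples, and the log2 fold change of -0.92 (SE 0.361, adjusted p = 0.146) did not pass the test, although it did with DESeq2 (adjusted p = 0.0355) and in a single fit of all 12 samples (adjusted p = 0.0430). UHRF2 was at 35.7, 65.2 and 61.2 CPM with vehicle and at 59.0, 37.7 and 35.3 CPM with DOX. It followed the division of the samples and not the treatment, with a log2 fold change of -0.32 (SE 0.290, adjusted p = 0.513). HELLS was at 66.1, 66.2 and 68.3 CPM with vehicle and at 42.5, 27.4 and 28.3 CPM with DOX, with tightly grouped vehicle samples. Its log2 fold change was -1.06 (SE 0.183, adjusted p = 0.0217), which is 2.08-fold lower.

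DNMT3B was at 22.6, 15.8 and 15.4 CPM in LNCaP-AI vehicle samples and at 6.72, 6.86 and 10.2 CPM with DOX. The 3 DOX samples all lay under the vehicle samples, with a log2 fold change of -1.21 (SE 0.249, adjusted p = 0.0315), which is 2.32-fold lower. DNMT3A was at 22.4, 15.5 and 16.3 CPM with vehicle and at 12.4, 11.2 and 11.3 CPM with DOX. Its groups did not overlap either, but the log2 fold change of -0.66 (SE 0.181, adjusted p = 0.0639) missed the threshold. It passed with DESeq2 (adjusted p = 0.00818) and in the fit of all 12 samples (adjusted p = 0.00865), which each called 7 of the 10 genes lower. Leaving out 1 sample at a time gave adjusted p values from 0.0471 to 0.222.

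Among the erasers in LNCaP-AI cells, TET3 was at 110, 87.8 and 101 CPM with vehicle and at 67.7, 67.9 and 60.5 CPM with DOX. It fell with a log2 fold change of -0.64 (SE 0.116, adjusted p = 0.0242). TDG was at 64.5, 68.7 and 64.5 CPM with vehicle and at 53.5, 46.6 and 50.5 CPM with DOX, with a log2 fold change of -0.42 (SE 0.0858, adjusted p = 0.0312). TET1 was at 3.70, 7.92 and 8.37 CPM with vehicle and at 5.46, 1.83 and 1.64 CPM with DOX. DOX 1 was above vehicle 1, and the log2 fold change of -1.18 (SE 0.563, adjusted p = 0.216) had a 95% interval from -2.55 to 0.19. TET2 was at 62.6, 50.8 and 46.4 CPM with vehicle and at 42.5, 62.7 and 59.4 CPM with DOX. It too ran with the division of the samples, with a log2 fold change of 0.01 (SE 0.192, adjusted p = 0.966).

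**Figure D2:**
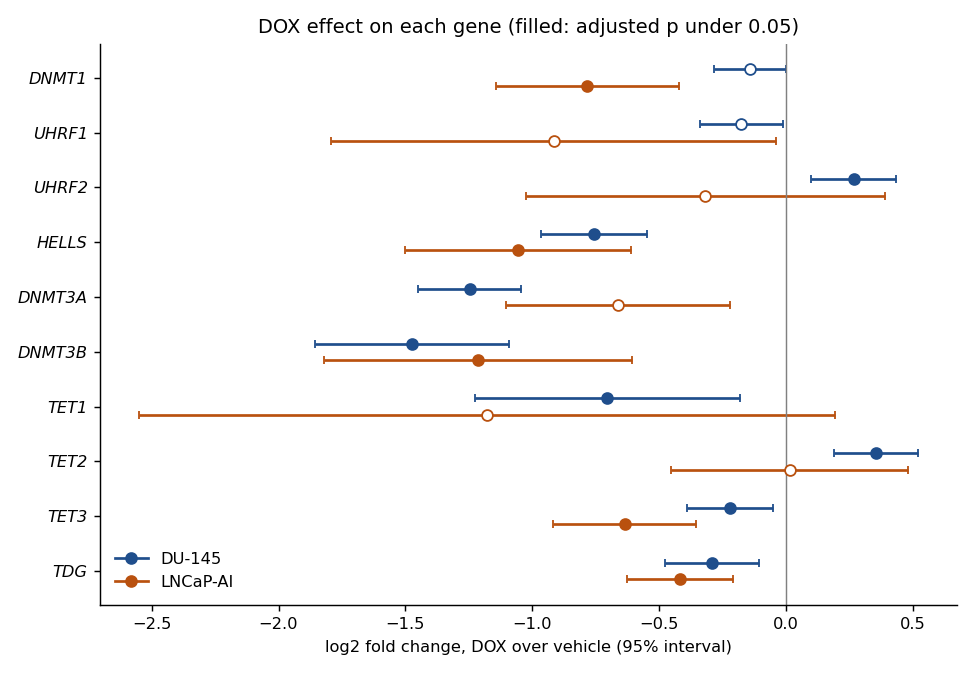
Log2 fold change of DOX over vehicle (horizontal axis) with its 95% interval for each gene in DU-145 (blue) and LNCaP-AI cells (orange), with filled points for an adjusted p under 0.05. The LNCaP-AI intervals are the wider ones, from -2.55 to 0.19 for TET1.

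Within each set of LNCaP-AI samples that lay together, 9 of the 10 genes were lower with DOX in both comparisons. DNMT3B had log2 differences in CPM of -1.22 between DOX 1 and vehicle 2 and 3, and of -1.44 between DOX 2 and 3 and vehicle 1. The same values were -0.66 and -1.25 for HELLS, -0.56 and -1.02 for DNMT1, -0.48 and -0.78 for TET3, -0.36 and -0.99 for DNMT3A, and -0.31 and -0.41 for TDG. UHRF1 (-0.33 and -1.13) and TET1 (-0.58 and -1.10), whose groups overlapped over all 6 samples, were lower in both sets. TET2 (-0.19 and -0.04) was lower in both by little, and UHRF2 (-0.10 and 0.03) differed in sign between them. Each of these comparisons has 1 sample on a side and carries no test.

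**Figure D3:**
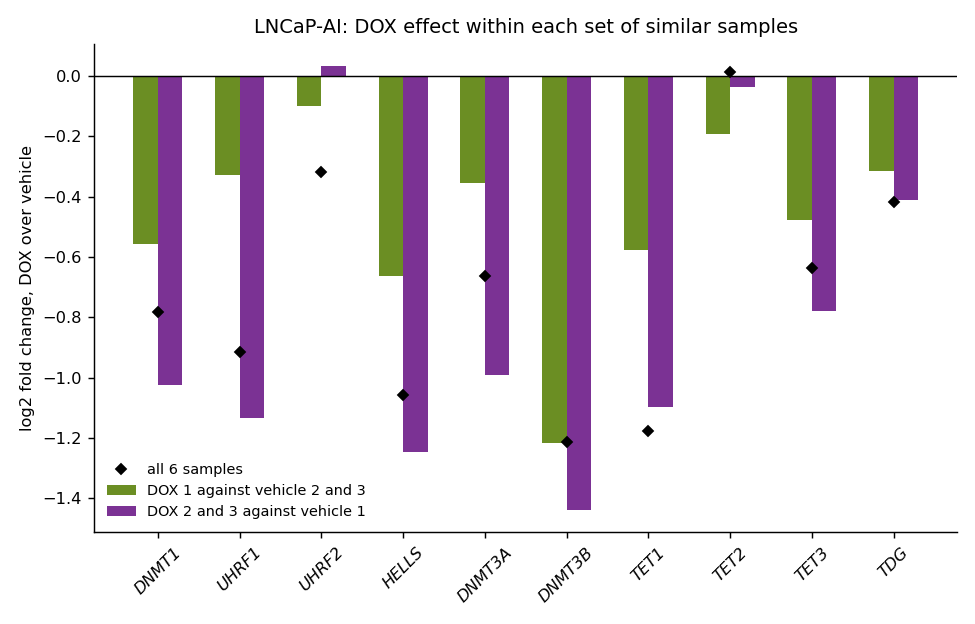
Log2 fold change of DOX over vehicle in LNCaP-AI cells for DOX 1 against vehicle 2 and 3 (green bars), for DOX 2 and 3 against vehicle 1 (purple bars), and from all 6 samples (diamonds). Both bars are below 0 for every gene apart from UHRF2, whose purple bar is at 0.03.

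The DOX effect itself was compared between the lines as an interaction over all 12 samples. DNMT1 alone of the 10 passed the test, with a DOX effect lower in LNCaP-AI by -0.60 on the log2 scale (SE 0.159, adjusted p = 0.0396), against 3.76% of 16800 genes with a lower and 5.43% with a higher effect in LNCaP-AI cells. This call is near the threshold, and was lost with DESeq2's size factors (adjusted p = 0.0515) and in 9 of the 12 fits that leave out 1 sample, all but those without LNCaP-AI vehicle 1, vehicle 2 or DOX 1. DNMT3A had the opposite sign, at 0.62 (SE 0.197, adjusted p = 0.0759), and was called by DESeq2 (adjusted p = 0.0395). For the other members the difference did not pass the test, with unadjusted 95% intervals from -0.37 to 0.96 for DNMT3B, from -0.80 to 0.27 for HELLS, from -0.35 to 0.17 for TDG, from -0.76 to 0.15 for TET2 and from -0.68 to -0.08 for TET3 (adjusted p = 0.111). UHRF1 had an interval from -1.58 to 0.17, UHRF2 from -1.28 to 0.17 and TET1 from -1.86 to 0.99.

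Without DOX, the lines already differed in most of these genes. DU-145 vehicle samples were higher than LNCaP-AI vehicle samples for 3 of the 10, HELLS (log2 difference 1.44, SE 0.127, adjusted p = 7.61e-05), UHRF1 (1.17, SE 0.144, adjusted p = 0.000345) and DNMT3A (1.08, SE 0.159, adjusted p = 0.000822), against 30.2% of 15628 genes tested. They were lower for 5 of the 10, against 35.0% of genes tested, namely TET1 (-1.26), DNMT3B (-1.18), TET3 (-1.07), TDG (-0.68) and TET2 (-0.55), with adjusted p values from 0.000156 to 0.0122. DNMT1 (0.34, adjusted p = 0.0706) and UHRF2 (0.45, adjusted p = 0.113) did not pass the test, although DNMT1 did without LNCaP-AI vehicle 1 (0.40, adjusted p = 0.00110). TET1 missed the threshold without DU-145 vehicle 2 or 3 (adjusted p = 0.0538 and 0.0555). The groups did not overlap for 9 of the 10, against 73.3% of genes tested. The cell line and the set of libraries cannot be told apart in this comparison.

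Levels of different genes were compared per kb of the canonical transcript. In DU-145 vehicle samples the order ran from DNMT1 (75.5 ± 3.75 CPM per kb, SD, n = 3) through HELLS (56.4 ± 8.82), UHRF1 (29.6 ± 2.68), UHRF2 (20.1 ± 2.14) and TDG (12.6 ± 1.07) to a lower tier. DNMT3A (3.95 ± 0.182 CPM per kb), TET3 (3.83 ± 0.206) and TET2 (3.69 ± 0.122) overlapped in their samples and could not be ordered. DNMT3B (1.78 ± 0.211 CPM per kb) and TET1 (0.281 ± 0.0152) were the lowest. In LNCaP-AI vehicle samples DNMT1 was again highest, at 61.4 ± 11.2 CPM per kb (SD, n = 3), and TET1 again lowest, at 0.693 ± 0.268. HELLS (21.4 ± 0.398 CPM per kb) and TDG (20.7 ± 0.766) overlapped there, as did UHRF2 (15.1 ± 4.48) and UHRF1 (13.5 ± 2.32). TET3 (8.26 ± 0.924) was above TET2 (5.55 ± 0.873), which overlapped DNMT3B (4.14 ± 0.935), and DNMT3A (1.92 ± 0.400) stood below them. The order depends on the transcript chosen for the length, since the isoforms in use were not measured.

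**Figure D4:**
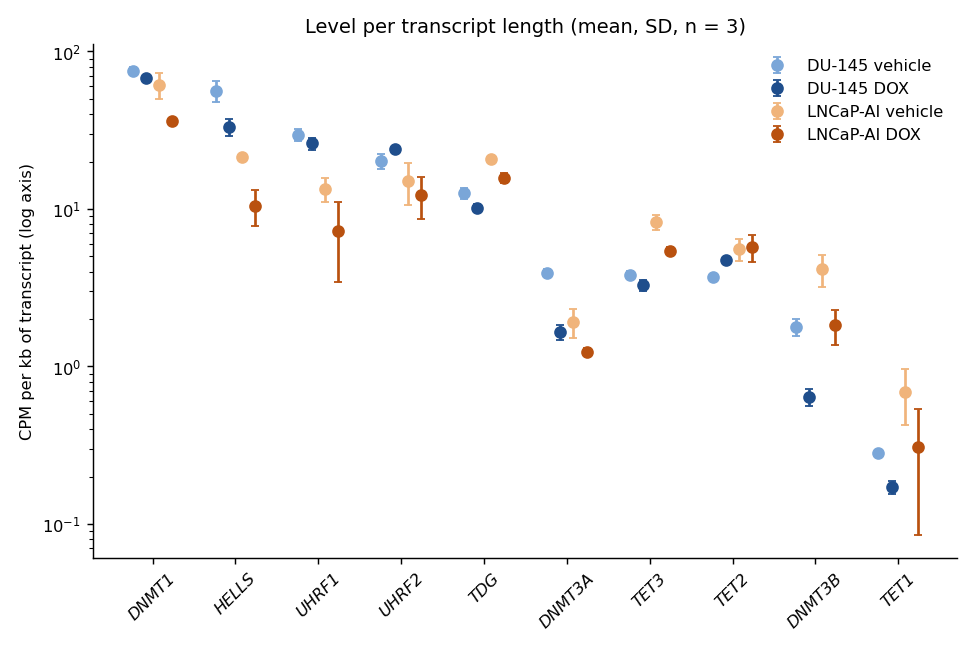
Level of each gene in CPM per kb of transcript (log axis), as the mean and SD of 3 samples in each group, ordered by DU-145 vehicle. DNMT1 is at the top in vehicle samples of both lines, and DNMT3B is above DNMT3A in LNCaP-AI but below it in DU-145 cells.

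The pair of de novo enzymes was made up differently in the lines. DNMT3A was 69.0% ± 1.66 (SD, n = 3) of the summed per-length level of DNMT3A and DNMT3B in DU-145 vehicle samples, and 31.7% ± 0.914 in LNCaP-AI vehicle samples. With DOX this share was 67.6, 72.4 and 75.9% in DU-145 samples, which overlapped the vehicle samples at 67.6, 70.8 and 68.4% (exact permutation p = 0.4, two-sided). In LNCaP-AI samples it was 46.0, 42.9 and 33.9% with DOX against 31.3, 31.1 and 32.8% with vehicle (exact permutation p = 0.1, the smallest that 3 against 3 samples allow).

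Within the TET family, the share of TET2 was higher with DOX in both lines. It was 46.2, 47.9 and 48.0% of the summed per-length level in DU-145 vehicle samples and 58.1, 54.7 and 60.6% with DOX. In LNCaP-AI samples it was 40.7, 39.5 and 34.4% with vehicle and 41.8, 52.9 and 54.5% with DOX, with DOX 1 just above the vehicle samples. The share of TET3 was lower, going from 49.0% ± 0.932 to 40.1% ± 2.80 in DU-145 and from 56.9% ± 2.56 to 47.5% ± 4.72 in LNCaP-AI cells (SD, n = 3). Each of these 4 comparisons was without overlap, with an exact permutation p of 0.1, the smallest possible. TET1 contributed 1.49% to 6.19% in any sample.

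S phase markers, a list of 38 genes, moved in the same samples. In DU-145 cells 21 of the 38 fell (55.3%, against 25.3% of genes tested, and 8 in the single fit of all 12 samples) and 1 rose, RPA2 (0.34), with a median log2 fold change of -0.21, and the decreases of BLM (-0.86) and CLSPN (-0.84) had the smallest adjusted p. DNMT3A and DNMT3B were lower than every one of the 38 in log2 fold change, and 2 of the 38 were lower than HELLS and TET1, whereas DNMT1 and UHRF1 lay within the list, above 24 and 21 of its members. In LNCaP-AI cells 24 of the 38 fell (63.2%, against 5.52% of genes tested), with a median of -0.82 and ATAD2 (-1.21) and CHAF1B (-0.84) first by adjusted p, and this count was 0 without DOX 2 or DOX 3, 13 to 16 without a vehicle sample and 33 without DOX 1. There the decreases of DNMT1 and HELLS lay within those of the list, with 24 and 8 of the 38 lower, and DNMT3A was above 31 of the 38. The summed level of the list ranged from 4739 to 4965 CPM with vehicle and from 4083 to 4316 CPM with DOX in DU-145 samples. In LNCaP-AI samples it was 4127 to 4494 CPM with vehicle, 3089 CPM in DOX 1 and 2133 to 2160 CPM in DOX 2 and 3. The part of proliferation in the values of the 10 genes was not tested.

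**Figure D5:**
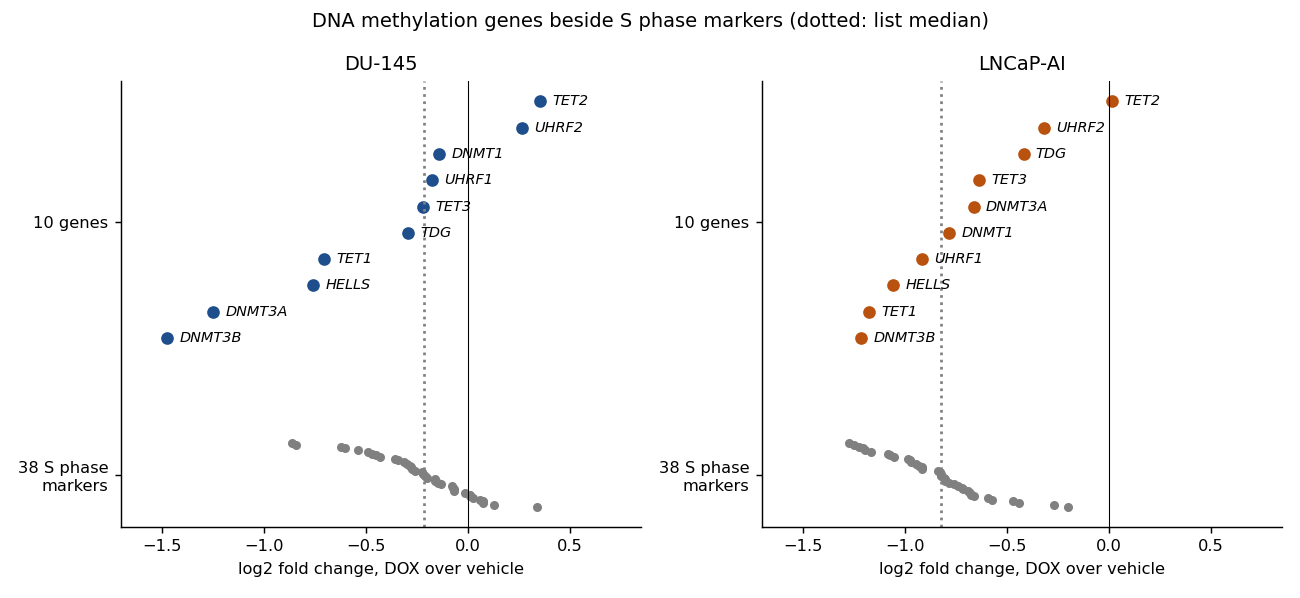
Log2 fold change of DOX over vehicle (horizontal axis) of the 10 genes (colored points) above that of 38 S phase markers (grey points), in DU-145 (left) and LNCaP-AI cells (right), with the list median as a dotted line. DNMT3A and DNMT3B lie left of all S phase markers in DU-145 cells, and all 10 genes but TET2 lie within their range in LNCaP-AI cells.

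The interaction of the S phase list was lower in LNCaP-AI for 10 of the 38 (26.3%, against 3.76% of genes tested), MCM2 (-0.84, adjusted p = 0.00373) and RFC2 (-0.69, adjusted p = 0.00733) among them, with a median of -0.57. This count ran from 3 to 33 over the 12 fits that leave out 1 sample. The value of DNMT1 (-0.60) was within this list, whereas those of DNMT3A (0.62), DNMT3B (0.29) and TDG (-0.09) were above all 38, and that of HELLS (-0.26) was above 36.

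Of 7 partners of maintenance methylation, 4 fell in DU-145 cells (57.1%, against 25.3% of genes tested). The decreases of PCLAF (-1.15, adjusted p = 7.44e-08), a PCNA-binding factor that works with UHRF1 and DNMT1, and of CDCA7 (-0.94, adjusted p = 2.13e-08), which recruits HELLS to chromatin, were the clearest. CDCA7 was at 75.6, 69.7 and 84.0 CPM with vehicle and at 37.5, 41.3 and 40.1 CPM with DOX. In LNCaP-AI cells 1 of the 7 passed the test (14.3%, against 5.52% of genes tested that fell), PCLAF (-0.68, adjusted p = 0.0409). At an unadjusted p under 0.05 there were 5 of the 7 lower, and the median log2 fold change of the 7 was -0.68. The call of PCLAF was lost in 5 of the 6 fits that leave out 1 sample, all but that without DOX 1 (adjusted p up to 0.159). CDCA7 was at 48.3, 54.8 and 55.0 CPM with vehicle in LNCaP-AI cells and at 37.9, 20.5 and 21.9 CPM with DOX.

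Of 10 base excision repair genes, 3 rose and 3 fell in DU-145 cells (30% each, near the 26.3% and 25.3% of genes tested), with increases of PARP1 (0.40, adjusted p = 0.000143) and POLB (0.37, adjusted p = 0.00846) and decreases of the glycosylases NEIL3 (-1.14, adjusted p = 2.19e-09) and UNG (-0.30, adjusted p = 0.00135). POLB was not called without vehicle 1 (adjusted p = 0.102) or DOX 3 (adjusted p = 0.0648). In LNCaP-AI cells 1 of the 10 passed the test (10%, against 5.52% of genes tested that fell), UNG (-0.44, adjusted p = 0.0472), and 3 were lower at an unadjusted p under 0.05. The call of UNG was lost in all fits without 1 sample but that without DOX 1 (adjusted p up to 0.194). PARP1 differed between the lines in its DOX effect (interaction -0.77, adjusted p = 0.00977).

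Among 12 cofactors and regulators of the TET enzymes tested in DU-145 cells, 5 rose and 2 fell (41.7% and 16.7%, against 26.3% and 25.3% of genes tested). GADD45A, a stress gene linked to demethylation, went from 16.8, 17.7 and 17.3 CPM to 56.3, 43.8 and 46.1 CPM (log2 fold change 1.50, adjusted p = 6.45e-10), and IDH3B rose by 0.57 (adjusted p = 1.37e-06). CXXC5, a CpG-binding protein, fell by 1.17 on the log2 scale (adjusted p = 1.02e-05), and D2HGDH, which clears a metabolite that inhibits the TET enzymes, by 0.57 (adjusted p = 0.00694). In LNCaP-AI cells 2 of 13 rose, IDH1 (1.02, adjusted p = 0.0208) and IDH3G (0.61, adjusted p = 0.0123), against 7.22% of genes tested, and neither was called without DOX 2 or DOX 3 (adjusted p up to 0.104 and 0.0875). CXXC5 differed between the lines (interaction 1.49, adjusted p = 0.00413).

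Of 10 methyl-CpG readers, 4 rose and 3 fell in DU-145 cells (40% and 30%, against 26.3% and 25.3% of genes tested), with MBD6 (0.38) and ZBTB38 (0.24) first among the increases and MBD3 (-0.70) and ZBTB33 (-0.77) first among the decreases. None passed the test in LNCaP-AI cells by edgeR (1 fell at an unadjusted p under 0.05, and 1 by DESeq2). ZBTB33 differed between the lines (interaction 0.90, adjusted p = 0.0425), but this call was lost in 9 of the 12 fits that leave out 1 sample, all but those without DU-145 vehicle 2, LNCaP-AI vehicle 1 or LNCaP-AI DOX 1 (adjusted p up to 0.105).

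In the methyl donor cycle, MTRR rose (0.32) and MTR (-0.26) and MAT2B (-0.25) fell among 10 genes in DU-145 cells, which is 10% and 20%, below the 26.3% and 25.3% of genes tested. MAT2B was not called without DOX 2 (adjusted p = 0.0544). In LNCaP-AI cells 1 of the 10 rose and 2 fell, MTHFD1 (-0.46, adjusted p = 0.0269) and MAT2A (-0.61, adjusted p = 0.0394), against 7.22% and 5.52% of genes tested. Neither decrease was called without DOX 2 or DOX 3 (adjusted p up to 0.141 and 0.167), nor that of MAT2A without vehicle 2 or vehicle 3. The interaction was higher for 1 of the 10 and lower for 1, MTHFD1 (-0.57, adjusted p = 0.0108).

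Germline genes known to be silenced by promoter methylation were mostly below the filter, with 3 of 13 tested in DU-145 and 4 of 13 in LNCaP-AI cells. In DU-145 cells BRDT rose (0.44, adjusted p = 0.00956), as did STK31 (0.38, adjusted p = 0.0449), and TEX15 fell (-0.92, adjusted p = 1.97e-07). The call of STK31 was lost with DESeq2 (adjusted p = 0.119), in 3 further settings (up to 0.557) and without vehicle 1, vehicle 3, DOX 2 or DOX 3 (up to 0.196), and that of BRDT without DOX 2 (adjusted p = 0.0534). TEX15 went from 93.7, 74.6 and 97.6 CPM to 43.0, 51.9 and 44.6 CPM. In LNCaP-AI cells none of the 4 tested passed the test by edgeR (1 was higher at an unadjusted p under 0.05, and 0 were called by DESeq2). DNA methylation itself was not measured here.

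Reads from neighbouring genes could enter some of these counts. COX20P1, a pseudogene inside TET1 on the same strand, had 49 to 206 counts per sample, a size like that of TET1 itself at 17 to 241. S1PR2, which overlaps DNMT1 on the same strand, had 56 to 202 counts against 3308 to 9287 for DNMT1. The pseudogenes of TDG and UHRF2 had at most 2 and 3 counts. How the counting tool treated shared reads is not given in the sources used here.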

How the data were processed

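RNA-seq of 12 samples was analysed, 3 in each of 4 groups taken from the labels. The authors aligned reads with STAR 2.7.0 to GRCh38.p7, per the labels, and deposited a table of raw counts per gene. The counting tool and its use of strand are not given in the sources used here. Of 58037 identifiers, 56948 had a symbol. Positions and transcript lengths came from GENCODE release 44. A gene was kept when 3 or more samples held 10 or more counts, and was tested with edgeR 4.0.16 (TMM, quasi-likelihood test, two-sided) in R 4.3.3 within each line, between vehicle groups and as an interaction, with Benjamini-Hochberg adjustment over all genes tested and a call at an adjusted p under 0.05. Standard errors were derived from F. Alternatives included DESeq2 1.42.0 and leaving out each sample. Total counts were 10423437 to 26961777 per sample, and 3 counts or fewer were taken as the floor, which covers counting error only.

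All 10 members were named, MUC1 as the target, and from each other list at most 2 genes called in each direction with the smallest adjusted p. CDCA7 in LNCaP-AI cells and the markers KLK3, HOXB13, CAV1, CD44, LGALS1 and VIM were named outside this rule, after their values were seen. Values of some genes on the lists are not reported here. The members and lists were chosen with earlier results of these data known. Replicates differed by more than sampling noise in every pair. Per the labels cells were cultured in triplicates, and whether these were independent experiments is not stated, so p-values measure the spread between these samples, which may be technical. The steps were tested on simulated counts with known changes, which held no division of samples like that in LNCaP-AI cells.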

Additional observations from a re-analysis of the deposited data

Results flagged for a closer look

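The DOX effect differed between the lines, by the interaction test over all 12 samples in edgeR, for 8 of the genes named outside the lineage and epithelial markers. Among those markers it differed for VIM, with a higher effect in LNCaP-AI cells (1.53, adjusted p = 9.54e-05). Of 16800 genes tested, 3.76% had a lower and 5.43% a higher effect in LNCaP-AI cells. The rule that named genes of the other lists drew on this same test, so the count of 8 is not a result about them. DNMT1 was lower in LNCaP-AI than in DU-145 cells by -0.60 on the log2 scale (SE 0.159, adjusted p = 0.0396), with within-line effects of -0.78 and -0.14. The effect was also lower in LNCaP-AI for PARP1 (-0.77), MTHFD1 (-0.57), MCM2 (-0.84) and RFC2 (-0.69). It was higher for MUC1 (1.95), ZBTB33 (0.90) and CXXC5 (1.49). The MUC1 value was measured against DU-145 DOX samples at the floor of 3 counts. Leaving out 1 sample at a time ended the call of DNMT1 and of ZBTB33 in 9 of 12 fits each, and that of MUC1 in 4, those without DU-145 DOX 2, DU-145 DOX 3, LNCaP-AI DOX 1 or LNCaP-AI DOX 2 (adjusted p up to 0.0900).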

How the results depend on the processing

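In DU-145 cells the directions of all 10 genes held under every alternative, and those called were 6 lower and 2 higher, with 4 lower by DESeq2, 5 with no filter, 8 with upper-quartile normalization and 4 in a single fit of all 12 samples. In the single fit 0 were higher and 4083 genes were called, and leaving out 1 sample gave 1 to 2 higher and 4 to 7 lower (1 higher without vehicle 1). TET1 lost its call in 3 and TET3 in 4 of the 6 fits without a sample.

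In LNCaP-AI cells, leaving out 1 sample gave 0 to 8 members lower and 1 to 3538 genes called. DESeq2 called 3517 genes and the fit of all 12 samples 3933, with 7 members lower in each. With a term for the 2 sets of samples that lay together, taken from the same counts, 8 members were lower and 6271 genes were called. TET2, not called, changed sign with no filter (-0.023), with that term (-0.14) and in the fits without 1 sample (-0.088 to 0.21).

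In the interaction, DNMT1 was not called with DESeq2's size factors, upper-quartile normalization or no filter (0 lower each), and no filter gave 884 genes. DESeq2 called 1 member higher. Leaving out 1 sample gave 0 to 2 lower, 0 to 1 higher and 737 to 3471 genes.

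Replicate numbers did not pair the samples, with correlations of same-numbered samples of 0.085, -0.042 and 0.037 in DU-145 and -0.93, -0.79 and -0.82 in LNCaP-AI cells. With the replicate block, edgeR called 0 members and 0 genes in LNCaP-AI cells (2909 at an unadjusted p under 0.05), and in the interaction 0 members lower and 52 genes. The cause of these changes was not tested. Shares within a family do not depend on library scaling. Of the 10 genes, TET1 had the lowest counts, 17 to 241 per sample.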
